A study of Mus musculus with 8 samples.

Results

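Steroid hormones can be made or converted inside the brain as well as in the gonads and adrenal glands, and 10 genes of that local chemistry were followed in SST neurons of the tuberal nucleus (TN) of female and male mice. The genes were listed by symbol, with earlier results of these data known, and are 10 of the 35968 genes to which the sequenced transcripts could be assigned. They are *Star* and *Cyp11a1*, which start the pathway, *Cyp19a1*, *Srd5a1* and *Srd5a3*, which convert androgens or carry a reductase of that family, *Hsd17b4*, *Hsd17b10* and *Hsd17b12* of the 17β-hydroxysteroid dehydrogenase family, *Hsd11b1*, which acts on glucocorticoids, and *Cyp7b1*, which acts on oxysterols and neurosteroids.

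The study asked whether TN SST neurons are equipped to respond to estrogens or to signals of white fat. It profiled them by Flow-Seq, the sequencing of bulk RNA from fluorescently sorted cells. All 8 mice carried the genotype Ssttm2.1(cre)Zjh/J / +, in which Cre recombinase is made from the *Sst* locus, and all received AAV2-flex-tdTomato in the TN, so the groups were 4 adult females and 4 adult males that the labels tell apart by sex alone, with no library of unsorted cells analysed here. Red cells were live, nucleated cells with high tdTomato after papain dissociation. The virus was given to adult mice, so tdTomato marks infected cells that had Cre from the *Sst* locus at or after injection. Each mouse gave 1 library of estimated counts that summed to 7.83 to 17.6 in units of 1000000, of which 9.34% to 34.4% lay on the single gene *Lars2*, and 3 counts, taken as the limit of detection, corresponded to 0.148 to 0.458 counts-per-million units (CPM).

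All 9 neuronal marker genes were detected in every mouse, with *Sst* at 898 to 1883 transcripts-per-million units (TPM, a level corrected for transcript length). Markers of other cells were detected as well, with all 6 microglial genes and all 6 astrocyte genes above 0 in every mouse. The summed microglial genes lay at 188 to 1103 CPM in females and 438 to 2102 CPM in males, and the summed astrocyte genes at 189 to 700 CPM and 491 to 759 CPM. In females and males the oligodendrocyte sum was 453 to 1864 and 765 to 1717 CPM, the endothelial sum 22.1 to 71.4 and 26.4 to 79.3 CPM, the ventromedial nucleus sum 148 to 348 and 93.4 to 231 CPM, and the tanycyte and ependymal sum 389 to 460 and 243 to 332 CPM, of which only the last did not overlap. The tanycyte and ependymal list held *Rax*, *Col25a1*, *Foxj1*, *Ccdc153* and *Crym*. Of these, 4 were tested, 3 higher and 1 lower in females, with none called by edgeR (lowest adjusted p = 0.0655). At an unadjusted edgeR p under 0.05 there were 2 of the 4, beside 20.5% of all genes. The sexes did not overlap in CPM for 2 of the 4, beside 10.4% of all genes. Which cells the counts of this list came from was not tested. In RNA from pooled cells, fewer cells of a type and less RNA per cell cannot be told apart.

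In steroid synthesis, the protein encoded by *Star* brings cholesterol to the inner mitochondrial membrane, where the enzyme encoded by *Cyp11a1* cuts its side chain to give pregnenolone. Later steps turn pregnenolone into androgens, and testosterone can then be aromatized to estradiol by the *Cyp19a1* product or reduced to dihydrotestosterone by the *Srd5a1* product, so that aromatase and 5α-reductase draw on the same substrate. In the hypothalamus, aromatase is known from limited groups of neurons, and the estradiol it makes from circulating testosterone acts on estrogen receptors during the sexual differentiation of the brain.

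The promoters of 3 genes are shown, *Cyp19a1* and *Srd5a1* because their products share testosterone as a substrate and *Hsd17b12* because the sex comparison turns on it. *Cyp19a1* (mm10 chromosome 9, 54165937 to 54268110, - strand) has alternative first exons. RefSeq (GRCm38.p6, the same build as mm10) lists 3 starts for it, and the bases just before each are printed 5′ to 3′ on the gene's strand. The first 2 windows lie in introns of longer *Cyp19a1* transcripts and the third lies before the whole gene. Capitals mark matches on either strand to TATAAA (of classical core promoters), to CCAAT (the letters bound by factor NF-Y), to GGGCGG (bound by factor Sp1) and to AGGTCA (the half-site of many nuclear receptors), and overlapping matches run together.
Cyp19a1 chr9:54193744-54193993: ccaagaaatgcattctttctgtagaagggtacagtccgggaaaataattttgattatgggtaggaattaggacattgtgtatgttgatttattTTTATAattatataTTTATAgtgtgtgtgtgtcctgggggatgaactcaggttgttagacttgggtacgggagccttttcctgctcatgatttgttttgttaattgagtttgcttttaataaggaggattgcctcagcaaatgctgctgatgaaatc
Cyp19a1 chr9:54228915-54229164: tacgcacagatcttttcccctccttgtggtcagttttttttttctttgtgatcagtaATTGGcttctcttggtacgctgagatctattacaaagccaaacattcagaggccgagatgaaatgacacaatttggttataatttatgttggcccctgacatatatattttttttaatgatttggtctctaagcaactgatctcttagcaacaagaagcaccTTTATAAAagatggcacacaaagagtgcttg
Cyp19a1 chr9:54268165-54268414: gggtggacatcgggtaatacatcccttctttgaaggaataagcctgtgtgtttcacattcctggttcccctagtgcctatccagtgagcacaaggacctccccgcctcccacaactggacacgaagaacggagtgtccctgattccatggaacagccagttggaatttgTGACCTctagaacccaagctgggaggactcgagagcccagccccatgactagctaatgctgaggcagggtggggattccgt
The first window held 2 matches to TATAAA, the second held 2 overlapping ones, the nearer beginning 29 bases before the start, and a CCAAT, and the third held 1 AGGTCA. Of all 32851 promoter windows of 250 bases, 12.4% held the TATA motif, 33.8% the NF-Y motif, 32.7% the Sp1 motif and 14.0% the nuclear receptor half-site. GC content was 36.8%, 37.2% and 54.4% in the 3 windows, beside a median of 52.4% over all windows.

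*Srd5a1* (chromosome 13, 69573449 to 69611442, - strand) and *Hsd17b12* (chromosome 2, 94032689 to 94157964, - strand) have windows of another composition. The window of *Hsd17b12* is 195 bases long because the bases nearest its RefSeq start lie in an exon of a longer transcript and were left out.
Srd5a1 chr13:69611464-69611713: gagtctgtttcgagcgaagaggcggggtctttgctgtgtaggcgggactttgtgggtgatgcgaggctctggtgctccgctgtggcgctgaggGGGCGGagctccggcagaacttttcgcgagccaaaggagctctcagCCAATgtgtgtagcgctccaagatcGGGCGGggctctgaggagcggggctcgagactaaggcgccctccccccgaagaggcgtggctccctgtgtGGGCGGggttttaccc
Hsd17b12 chr2:94157965-94158159: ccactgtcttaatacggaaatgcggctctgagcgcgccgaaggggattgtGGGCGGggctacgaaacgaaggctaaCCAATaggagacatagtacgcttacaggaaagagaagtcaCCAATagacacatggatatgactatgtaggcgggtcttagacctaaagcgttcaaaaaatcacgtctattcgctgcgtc
Neither window held TATAAA. The *Srd5a1* window held 3 GGGCGG and 1 CCAAT with a GC content of 64.8%, and the *Hsd17b12* window held 1 GGGCGG and 2 CCAAT. The ratio of observed to expected CpG was 0.802 and 1.20, against 0.274, 0.347 and 0.324 in the *Cyp19a1* windows and a median of 0.374 over all windows. A match is a run of letters and not a shown binding site. Of the 10 genes, 7 had an entry in the promoter table, and *Star*, *Cyp7b1* and *Hsd17b4* had none.

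The 10 genes spanned a 252-fold range of mean level. *Hsd17b4*, which encodes a peroxisomal enzyme of fatty acid oxidation that also inactivates estradiol, was the highest at 83.8 TPM (57.0 to 109 over the 8 mice). *Hsd17b12*, whose product elongates very long chain fatty acids and can reduce estrone to estradiol, followed at 41.3 TPM (32.3 to 51.8). *Srd5a3*, a reductase best known for making dolichol for protein glycosylation, had 27.2 TPM (23.5 to 31.7). These are genes whose products also serve lipid metabolism or glycosylation outside the steroid pathway. *Hsd17b10*, encoding a mitochondrial dehydrogenase and subunit of RNase P, had 16.4 TPM (8.40 to 23.5). These 4 genes held 93.2% of the summed 181 TPM of the 10, and the median over all genes tested was 18.5 TPM. In TPM each of the 4 lay above the next gene in 8 of 8 mice, but in CPM this did not hold. There *Hsd17b12* lay below *Srd5a3* in female 4 (25.6 against 26.1), and *Hsd17b10* below *Srd5a1* in male 4 (3.90 against 4.28). *Hsd17b10* also lay below *Star* in CPM in female 2 (5.19 against 7.48) and male 4 (3.90 against 6.68).

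The genes with more specific roles in steroid synthesis lay lower. *Srd5a1* had a mean of 3.20 TPM, *Star* 2.95, *Cyp7b1* 2.52, *Hsd11b1* 1.98, *Cyp19a1* 1.32 and *Cyp11a1* 0.333 TPM. From *Srd5a1* down, the range over mice of each gene overlapped that of the next, and *Srd5a1*, *Star* and *Cyp7b1* each lay above the next gene in only 5, 5 and 6 of 8 mice, so their order is not resolved. In TPM, *Hsd11b1* lay above *Cyp19a1*, and *Cyp19a1* above *Cyp11a1*, in 8 of 8 mice. These orders depend on the correction for transcript length. In CPM *Cyp19a1* had the higher mean, 1.75 against 1.05 for *Hsd11b1*, with 146 against 92 counts in total. In female 4 *Cyp19a1* lay below *Cyp11a1*, at 0.900 against 1.26 CPM.

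**Figure D1:**
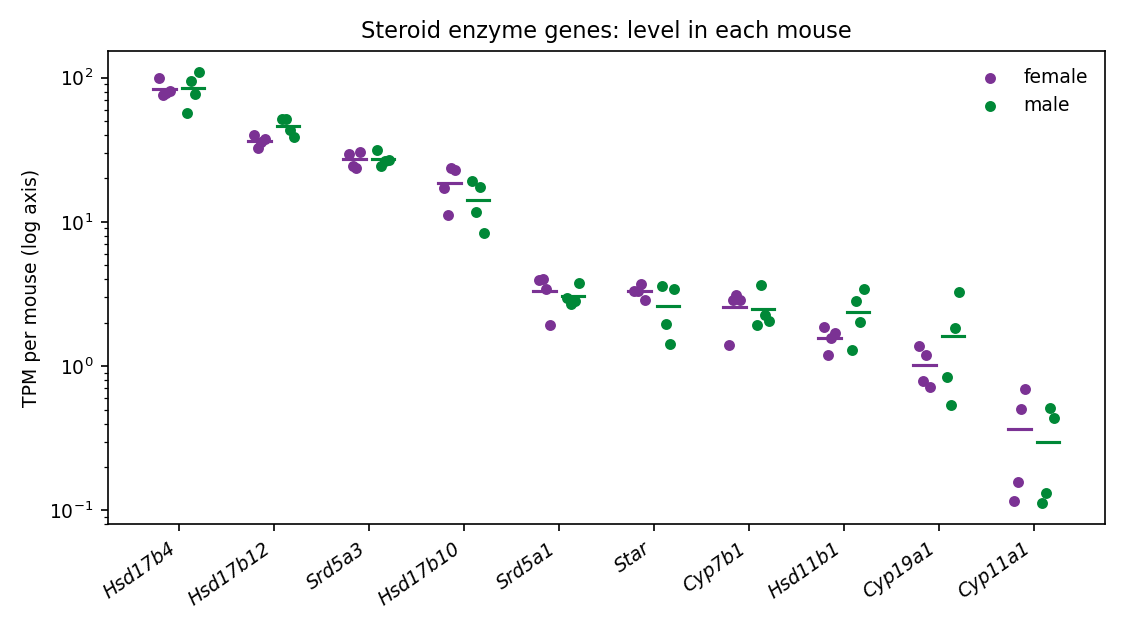
Level of each of the 10 genes in TPM on a log axis, with 1 point per mouse (4 females, 4 males) and a bar at the mean of each sex. The 4 genes on the left lie between 8.40 and 109 TPM, and the other 6 lie at or below 4.03 TPM in every mouse.

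The comparison of females with males asks whether this enzyme set differs by sex. Of the 9 genes that had enough counts for a test, 0 passed edgeR's quasi-likelihood test at 0.05 after Benjamini-Hochberg adjustment over all 15194 genes tested, and 0.158% of all genes did. *Cyp11a1* had too few counts to enter the fit. At an unadjusted p under 0.05 the same test had 1 of the 9, *Hsd17b12*, and 20.5% of all genes. By log2 fold change 3 of the 9 lay higher in females and 6 higher in males, with a median of -0.08, beside -0.0043 over all genes tested. The sexes did not overlap in CPM for 2 of the 9, *Hsd17b12* and *Hsd11b1*, and for 10.4% of all genes.

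*Hsd17b12* was at 38.1, 30.2, 25.3 and 25.6 CPM in the females (mice 1 to 4) and at 40.6, 46.6, 42.0 and 40.7 CPM in the males. Every male lay above every female, and female 1 lay close to the males. The log2 fold change of females against males was -0.51 (standard error 0.142, 95% interval -0.83 to -0.20), with an edgeR adjusted p = 0.120. A 2-sided exact permutation test of log2 CPM gave p = 0.0286, the smallest p that 4 mice against 4 can give. Groups without overlap always give this value, so it restates the lack of overlap and adds no support. The call depended on the test and on 1 mouse. DESeq2 gave -0.52 with an adjusted p of 0.0254, where it called 7.86% of all genes, and edgeR without female 1 gave -0.65 with an adjusted p of 0.0373, where it called 2.67%.

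Measured as TPM, the sexes overlapped for *Hsd17b12*, with 39.9, 32.3, 35.6 and 37.6 TPM for the females and 51.8, 51.5, 43.2 and 38.7 TPM for the males, since female 1 lay above male 4. The males still had the higher mean, 46.3 ± 6.46 TPM against 36.4 ± 3.22 TPM (SD, n = 4 mice each). Microglial, astrocyte and oligodendrocyte markers lay in the same direction, with 6 of 6 genes of each list at a lower fitted level in females. None of these was called by edgeR, and none was at 0 in any mouse. At an unadjusted edgeR p under 0.05 there were 4 of 6 microglial, 1 of 6 astrocyte and 2 of 6 oligodendrocyte genes, beside 20.5% of all genes. Neuronal markers went the other way, with 9 of 9 genes at a higher fitted level in females. With the mean of the microglial list as a covariate the *Hsd17b12* log2 fold change was -0.35 (edgeR adjusted p = 0.601), with the astrocyte list -0.33 (edgeR adjusted p = 0.762), and with the ventromedial nucleus list -0.45 (edgeR adjusted p = 0.199). The oligodendrocyte and neuronal lists were not used as covariates, and the part of any cell type in the difference was not tested beyond these fits.

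*Hsd11b1* encodes the reductase that regenerates active glucocorticoid from its inert form. It was at 0.777, 0.611, 0.839 and 0.720 CPM in the females (mice 1 to 4) and at 0.896, 1.65, 1.16 and 1.76 CPM in the males. Every male lay above every female, but male 1 lay just above the highest female. These values rest on 4 to 17 counts per female and 11 to 18 per male. The log2 fold change was -0.85 (standard error 0.388, 95% interval -1.73 to 0.02), with an edgeR adjusted p = 0.251. The 2-sided exact permutation test gave p = 0.0286, its smallest possible value, which was again fixed by the lack of overlap. In TPM the sexes overlapped, with 1.19 to 1.87 in females and 1.30 to 3.42 in males. *Hsd11b1* also overlaps *Lamb3*, which lies on the opposite strand at a mean of 15.6 CPM. The annotated *Hsd11b1* transcripts share 0 sequence words of 31 bases, read on either strand, with transcripts of other genes. Whether strand was used in counting is not given in the sources used here. With the microglial, astrocyte or ventromedial nucleus list as a covariate the *Hsd11b1* log2 fold change was -0.55, -0.80 or -0.995 (edgeR adjusted p = 0.899, 0.888 and 0.259).

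**Figure D2:**
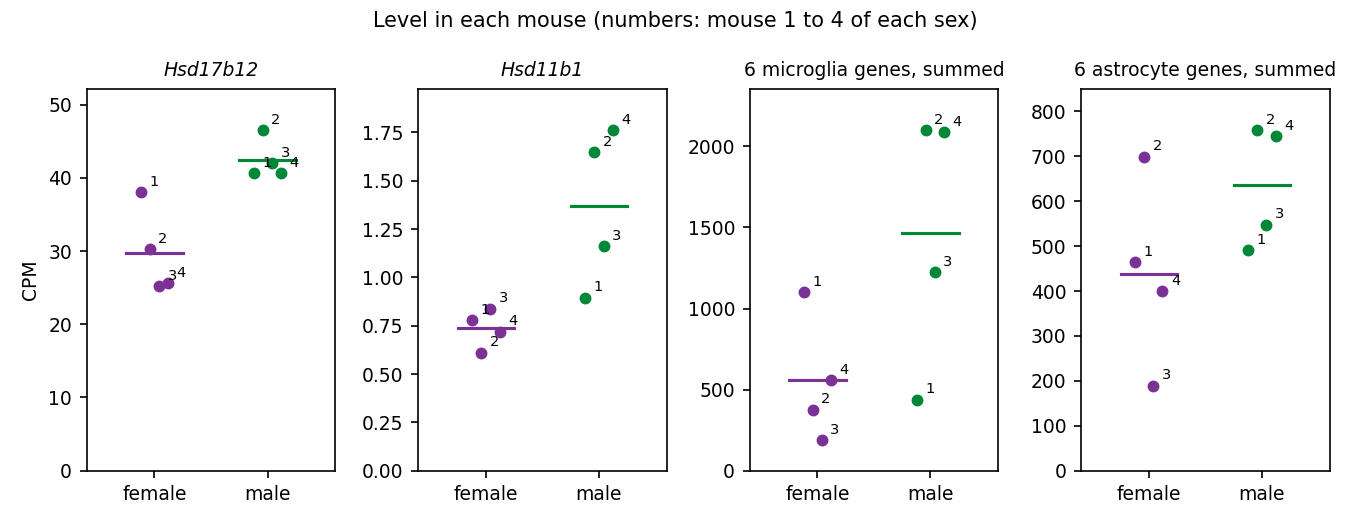
Level in CPM of Hsd17b12, Hsd11b1, the 6 summed microglial genes and the 6 summed astrocyte genes, with 1 point per mouse numbered 1 to 4 within each sex and a bar at the mean; every axis starts at 0. The sexes do not overlap for the 2 enzymes and overlap for both marker sums, and the microglial sum of male 1, 438 CPM, lies below those of females 1 and 4.

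Aromatase and 5α-reductase 1 were compared next, since both use testosterone. *Cyp19a1* was at 1.78, 1.22, 1.33 and 0.900 CPM in the females (mice 1 to 4) and at 1.14, 0.733, 2.50 and 4.41 CPM in the males. The sexes overlapped, and both the lowest and the highest mice were males. Counts ran from 8 to 35 per mouse, against a detection limit of 3. The main transcript, *Cyp19a1-201*, shares 36 of its 2338 words of 31 bases with transcripts of 2790 other genes. How counts were divided between *Cyp19a1* and those genes was not tested. The log2 fold change of -0.72 (standard error 0.562, 95% interval -1.98 to 0.54, edgeR adjusted p = 0.490) was -0.16 without male 4, the highest mouse, and -1.02 without male 2, the lowest. With the microglial, astrocyte or ventromedial nucleus list as a covariate it was -0.23, -0.76 or -1.02 (edgeR adjusted p = 0.980, 0.907 and 0.336).

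*Srd5a1* was more even, with 4.33, 4.89, 4.14 and 2.70 CPM for the females (mice 1 to 4) and 3.83, 3.76, 3.49 and 4.28 CPM for the males. Both extremes were females and all males lay between them. Its log2 fold change was 0.06 (95% interval -0.52 to 0.64, edgeR adjusted p = 0.916). *Srd5a1* overlaps *Nsun2* on the opposite strand, but their annotated transcripts share no 31-base words. The main *Srd5a1* transcript shares 17.1% of its 31-base words with *Gm17108*, the only gene with which it shares any. How counts were divided between *Srd5a1* and *Gm17108* was not tested.

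The ratio of *Cyp19a1* to *Srd5a1* TPM within each mouse does not depend on how libraries are scaled. It was 0.350, 0.197, 0.347 and 0.368 for the females (mice 1 to 4) and 0.286, 0.197, 0.646 and 0.874 for the males. In TPM *Srd5a1* was above *Cyp19a1* in 8 of 8 mice, and males 3 and 4 had the ratios nearest to 1. In CPM, which has no correction for transcript length, *Cyp19a1* was the higher of the 2 genes in male 4, at 4.41 against 4.28. On the log2 scale the ratio was -1.71 ± 0.427 in females and -1.24 ± 1.00 in males (SD, n = 4 mice each), a difference of -0.46 (2-sided exact permutation test, p = 0.457).

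At the start of the pathway, *Star* was at 6.44, 7.48, 7.35 and 6.30 CPM in the females (mice 1 to 4) and at 6.92, 4.77, 3.22 and 6.68 CPM in the males. Males 2 and 3 lay below all other mice, while males 1 and 4 lay within the range of the females. The log2 fold change was 0.36 (95% interval -0.24 to 0.95, edgeR adjusted p = 0.468), and was 0.17 without male 3. *Cyp11a1* had only 2 to 14 counts per mouse, at 0.222, 0.305, 0.691 and 1.26 CPM in females and 0.244, 0.275, 0.983 and 0.882 CPM in males. In 4 of the 8 mice, females 1 and 2 and males 1 and 2, its count of 2 or 3 was at or below the detection limit, and the sexes overlapped (2-sided exact permutation test of log2 CPM, p = 0.971).

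Of the 17β-hydroxysteroid dehydrogenases other than *Hsd17b12*, *Hsd17b4* was at 58.6, 47.0, 45.3 and 54.2 CPM in the females (mice 1 to 4) and at 44.1, 71.0, 57.3 and 73.7 CPM in the males. Males 2 and 4 were the highest mice and male 1 the lowest, so the sexes overlapped. Its log2 fold change was -0.26 (95% interval -0.63 to 0.11, edgeR adjusted p = 0.393) and moved to -0.17 without male 4 and -0.39 without male 1, whereas the mean TPM was nearly equal, 83.2 ± 10.5 in females and 84.5 ± 22.6 in males (SD, n = 4 mice each). *Hsd17b10* had 3.90 to 10.7 CPM over the 8 mice and a log2 fold change of 0.29 (95% interval -0.41 to 1.00, edgeR adjusted p = 0.628), and its sexes overlapped. It was 0.10 without male 4, 0.16 without female 4 and 0.49 without male 1.

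*Srd5a3* had the narrowest range of the 10 genes, 19.2 to 29.5 CPM or 1.54-fold, with a log2 fold change of -0.08 (95% interval -0.40 to 0.24, edgeR adjusted p = 0.796). *Cyp7b1*, the hydroxylase that acts on oxysterols and dehydroepiandrosterone, was at 1.67, 3.67, 3.21 and 3.24 CPM in the females (mice 1 to 4) and at 2.36, 4.58, 2.68 and 2.52 CPM in the males. Male 2 stood above the other males and female 1 below the other females, and the sexes overlapped. Its log2 fold change was -0.05 (95% interval -0.84 to 0.75, edgeR adjusted p = 0.957), and the intervals of all 9 genes but *Hsd17b12* held 0, so differences of the sizes they span were not resolved with 4 mice per sex.

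**Figure D3:**
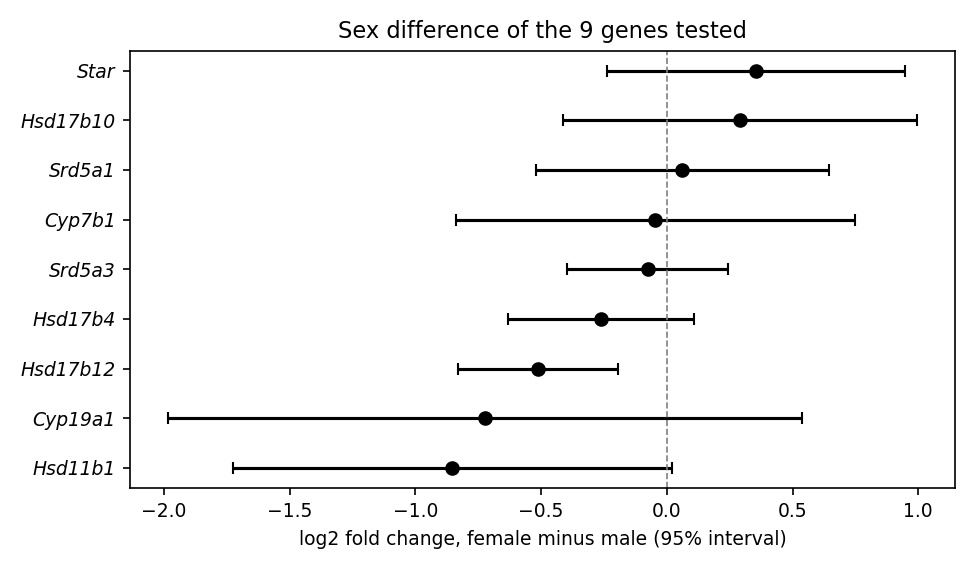
Log2 fold change of females minus males for the 9 genes tested, with points at the edgeR estimate and bars for its 95% interval; the dashed line marks no difference. Only the bar of Hsd17b12 (-0.83 to -0.20) lies wholly to one side of 0, and the widest is that of Cyp19a1 (-1.98 to 0.54).

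Gene totals hide which transcripts carried the counts. The 10 genes have 43 annotated transcripts, of which 31 had any count and 12 had enough to be tested. None of the 12 passed the threshold in edgeR's test over 39390 transcripts, where 0.00762% did. At an unadjusted p under 0.05 there was 1 of the 12, the coding *Hsd17b12-201* with a log2 fold change of -0.76 (edgeR adjusted p = 0.592), beside 7.11% of all transcripts. DESeq2 called 0 of the 12, with 0.0929 as the lowest adjusted p, for the same transcript. These fits take the estimated counts as exact.

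*Cyp11a1* stood out by transcript type. Of its counts, 92.4% lay on *Cyp11a1-204*, a transcript that retains an intron and is annotated as noncoding, against 5.15% on transcripts of that type over all protein-coding genes but *Lars2*. The coding *Cyp11a1-201* had counts in 1 of 8 mice, female 3, with 4.32 estimated counts. Both transcripts have many sequence words of their own, 934 of 2090 words of 31 bases for *Cyp11a1-201* and 2410 of 3409 for *Cyp11a1-204*. The low *Cyp11a1* level thus came almost wholly from the intron-retaining form in these estimates. However, *Cyp11a1-204* also shares 39 words with transcripts of 750 other genes, whereas *Cyp11a1-201* shares 0. How counts were divided between *Cyp11a1-204* and those genes was not tested.

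For *Cyp19a1*, 98.6% of counts were given to the coding *Cyp19a1-201*, whose first base at 54193442 lies nearest to the start behind the first of the promoter windows printed above. This does not settle which start was used, because *Cyp19a1-201* has only 2 words of 31 bases that no other transcript holds. *Cyp19a1-202*, *Cyp19a1-203* and *Cyp19a1-204*, with 37, 80 and 239 words of their own, were at 0 in all 8 mice. *Star* (99.1% on *Star-201*) and *Srd5a3* (96.4% on *Srd5a3-201*) were likewise nearly all on 1 coding transcript, although *Srd5a3-201* has 0 words of its own, and *Cyp7b1* has only 1.

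*Hsd17b10* was split, with 57.6% of its counts on the noncoding *Hsd17b10-204* and 39.9% on coding transcripts. The share on *Hsd17b10-204* ran from 0% in female 2 and male 4 to nearly all in male 1. The leading coding form, *Hsd17b10-201*, has 0 words of its own, and its share of the gene's counts differed by up to 76.6 percentage points between the 2 blocks of values deposited for the same mouse, so the split is not resolved. *Hsd17b12-201* held 77.3% of its gene's counts, with a difference between blocks of up to 50.4 percentage points (median 23.0), and *Hsd17b4-201* held 88.8%. The 92 counts of *Hsd11b1* were spread over 4 transcripts, led by *Hsd11b1-205* with 39.8%.

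**Figure D4:**
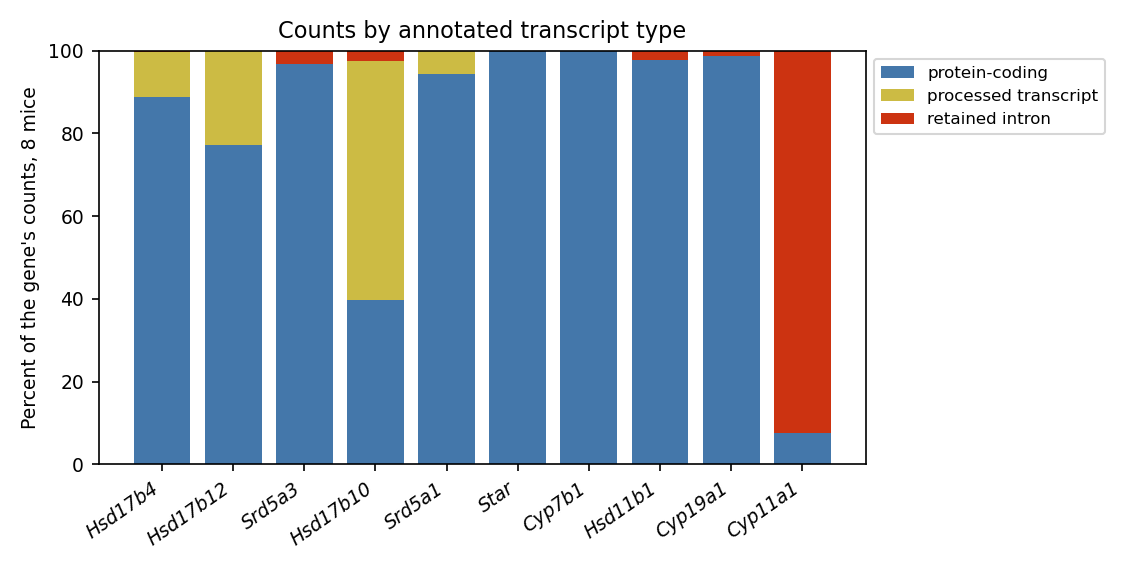
Percent of each gene's estimated counts, summed over the 8 mice, that lay on protein-coding, processed (noncoding) and intron-retaining transcripts; bars start at 0 and add to 100. Cyp11a1 is 92.4% intron-retaining and Hsd17b10 is 57.6% processed, while coding transcripts hold 77.3% or more of the other 8.

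Around these genes, the steps between cholesterol and the active hormones were unevenly present. All 10 genes for cholesterol delivery and electron transfer to steroidogenic enzymes were tested, and 2 lay higher in females and 8 higher in males with none called by edgeR (median log2 fold change -0.19, 6 of 10 at an unadjusted p under 0.05, beside 20.5% of all genes). The highest were *Vdac1*, a channel of the outer mitochondrial membrane, at 269 TPM and *Por*, which passes electrons to microsomal cytochromes P450 including aromatase, at 190 TPM. *Vdac1* had 153 to 179 CPM in females and 118 to 134 CPM in males, without overlap, with a log2 fold change of 0.36 (edgeR adjusted p = 0.0798, DESeq2 adjusted p = 0.00278). *Por* lay at 144 to 184 CPM in females and 135 to 167 CPM in males. *Tspo*, a cholesterol-binding outer membrane protein also abundant in activated microglia and named after its values were seen, was at 2.22, 0.153, 0.148 and 0.990 CPM in the females (mice 1 to 4) and at 1.71, 6.05, 2.95 and 4.16 CPM in the males (log2 fold change -2.10, edgeR adjusted p = 0.194).

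Most other steroid-forming genes had few counts. Of the 15 listed, 2 had enough counts to be tested, 4 were at 0 in all mice, and none was called (0 of 2 also with DESeq2 and at an unadjusted edgeR p under 0.05). The 2 tested were *Hsd17b7*, which acts in cholesterol synthesis and on estrone, at 6.60 TPM and *Hsd3b2* at 4.53 TPM, whose transcripts share 36.4% to 51.3% of their words with other genes and are uncertain. *Cyp17a1*, which makes androgens from pregnenolone and is the step between *Cyp11a1* and the substrates of *Cyp19a1*, had 0 to 13 counts per mouse and was also named after its values were seen.

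Of the 13 steroid-inactivating and conjugating genes found, 6 were tested, 1 higher and 5 lower in females with none called (median -0.09, 1 of 6 at an unadjusted edgeR p under 0.05 beside the same 20.5%, 0 with DESeq2). *Hsd17b11*, at a mean of 23.4 TPM, lay at 11.5 to 21.5 CPM in females and 20.7 to 38.4 CPM in males, which overlap, with a log2 fold change of -0.72 (edgeR adjusted p = 0.181). Beside *Cyp7b1*, 4 of 8 oxysterol and bile acid genes were tested and none was called by edgeR (1 of 4 at an unadjusted p under 0.05, beside 20.5% of all genes). *Cyp46a1*, the neuronal 24-hydroxylase that clears cholesterol from the brain, was at 73.0 TPM, with 82.0 to 119 CPM in females and 50.5 to 68.4 CPM in males, without overlap (log2 fold change 0.66, standard error 0.139, edgeR adjusted p = 0.0798, DESeq2 adjusted p = 0.00134). The 9 neuronal marker genes lay in the same direction as *Cyp46a1* and *Vdac1*, with 9 of 9 at a higher fitted level in females (median log2 fold change 0.32), none called by edgeR, 3 at an unadjusted p under 0.05, and summed levels of 2638 to 3447 CPM in females and 2020 to 2751 CPM in males. Their part in these differences was not tested. *Ephx1* was at 47.0 TPM with a log2 fold change of 0.25 (edgeR adjusted p = 0.363).

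**Figure D5:**
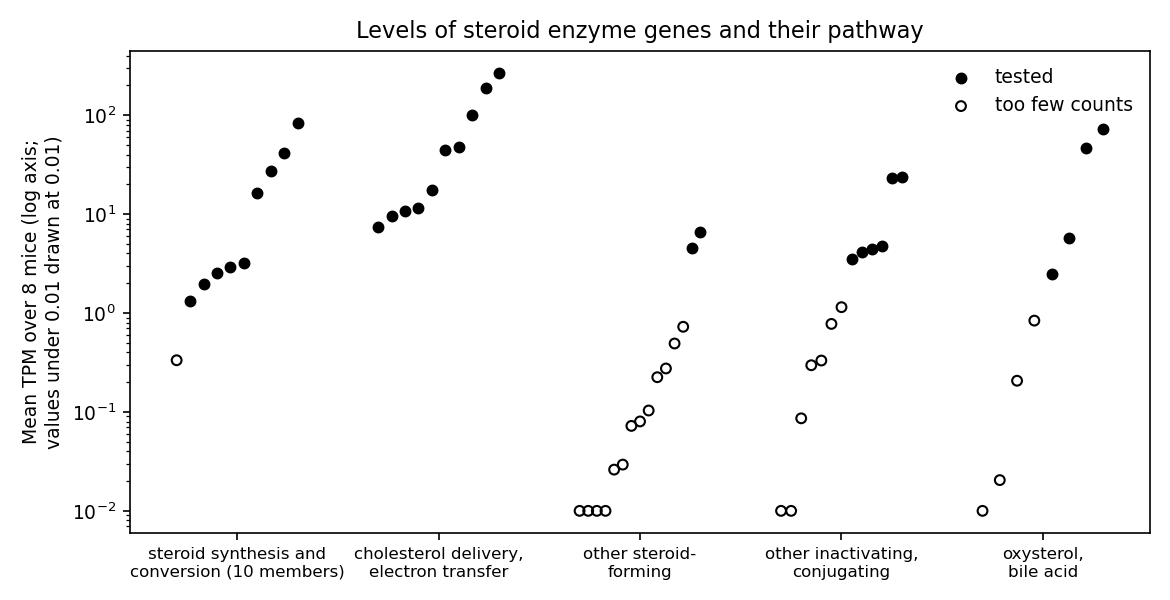
Mean TPM over the 8 mice on a log axis for each gene of the 10 followed here and of 4 pathway lists, with filled points for genes tested and open points for genes with too few counts; genes under 0.01 TPM are drawn at 0.01. All 10 delivery and electron transfer genes are filled, whereas 13 of the 15 other steroid-forming genes are open.

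Last, the genes whose log2 CPM followed each member most closely over the 8 mice were listed, as a description of libraries that share depth and cell mixture. *Hsd17b12* ran closest to *Eml3*, *Itgb1* and *Rpl28* (Pearson r = 0.991, 0.985 and 0.980 over 8 mice), and *Hsd17b4* to *Slc25a45*, *Limd1* and *Plekhf2* (r = 0.995, 0.991 and 0.987). *Hsd11b1* ran closest to *Clspn*, *Csf2ra* and *Gm13237* (r = 0.978, 0.976 and 0.972), of which *Csf2ra* encodes a cytokine receptor subunit of myeloid cells. *Cyp19a1* ran closest to *Pbdc1*, *Arhgap5* and *Aaed1* (r = 0.955, 0.948 and 0.947). For *Srd5a1*, *Srd5a3*, *Star* and *Cyp7b1* the closest genes were *Wac*, *Proca1*, *Olfr351* and *Zcchc7* (r = 0.970, 0.945, 0.969 and 0.975). The first gene named for each member had the highest r among the 15194 genes tested, and the 9 members had no gene in common among their 3 closest.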

How the data were processed

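RNA of sorted tdTomato-positive TN SST neurons was sequenced by the authors, with 1 library per mouse, made with a stranded kit. The authors quantified reads on mouse transcripts (mm10) with kallisto (version 0.46.2 per the submitters' processing notes) and deposited estimated counts, which are not normalized, and a TPM column, handled here as a score because each mouse came in 2 blocks of 118489 transcripts whose TPM each sum to 1000000. What the blocks are is not given in the sources used here. Counts were summed and TPM averaged over the blocks, joined to GENCODE M21 (116728 transcripts matched), summed per gene and rounded.

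Sexes were compared with edgeR 4.0.16 (quasi-likelihood test after TMM scaling and the default low-count filter, Benjamini-Hochberg adjustment, threshold 0.05). Alternatives used DESeq2 1.42.0, limma 3.58.1, other filters, scalings and covariates, single blocks, a replicate block and each mouse left out. Single values had 2-sided exact permutation tests (scipy 1.17.1). Scripts were tested on simulated data. Detection limits cover counting error only, and PCR reads are not independent molecules. The intervals of the log2 fold changes come from the edgeR fits and include the spread between mice. The labels number the samples of each sex and are read as 1 mouse each, and p-values measure the spread between these samples.

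The 10 genes, the pathway and marker lists and the tests were chosen with earlier results of these data known. Named beside the members were, of each pathway list, the genes past the threshold (up to 4) or else the 2 with the highest mean TPM, and the 3 tested genes with the highest Pearson r to each member. Some genes that this rule names are not reported here. Words of 31 bases were counted over all annotated transcripts. Promoter windows came from RefSeq and were trimmed of the gene's own exons.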

Additional observations from a re-analysis of the deposited data

Results flagged for a closer look

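Of 20 sets of 4 mice examined, 1 per gene and sex, a single one had a mouse far from the other 3. *Cyp7b1* in male 2 was at 4.58 CPM, where the nearest male was at 2.68 and the farthest at 2.36, so that the gap to the nearest made up 0.856 of the whole range. Chance gives about 1 such mouse in 20 sets.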

How the results depend on the processing

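The 9 members stayed without a call under all alternatives but 2. DESeq2 called 1 (*Hsd17b12*, adjusted p = 0.0254), and leaving out single mice gave 0 to 1, with *Hsd17b12* called without female 1. Across all genes edgeR called 24. DESeq2 called 1052, the fits with the microglial and astrocyte lists as covariates 13 and 9, limma on log2(TPM + 1) and log2(TPM + 0.1) 8 and 5, and leaving out single mice 8 to 415, with 415 without female 1 and 411 without male 1. Across all transcripts 3 were called, 472 with DESeq2 and 0 to 3 without single mice, with 0 without male 2 or 3 and 1 without male 1. With the replicate block 1 gene and 0 transcripts were called, and *Hsd17b12* had a log2 fold change of -0.53 (edgeR adjusted p = 0.212). Same-numbered mice did not deviate together (r = -0.396, -0.156, 0.0356 and 0.0719 for numbers 1 to 4), so the numbers were taken as names only.

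Directions of uncalled members reversed in 14 values, while 166 kept direction and side of the threshold. *Srd5a1* went to -0.045 without female 2 (-0.045 to 0.21 with single mice left out) and -0.20 on the second block alone, and *Srd5a3* to 0.025 without female 3 (-0.15 to 0.025) and 0.036 with the astrocyte covariate. *Cyp7b1* went to 0.14 without female 1 and 0.22 without male 2 (-0.16 to 0.22), 0.20 on the second block, 0.042 with the astrocyte covariate, and 0.034 and 0.038 with limma on log2(TPM + 1) and log2(TPM + 0.1). *Hsd17b4* went to 0.092 with the microglial covariate and 0.011 with both limma fits, and *Hsd17b10* to -0.022 with the astrocyte covariate. The causes were not tested. *Cyp19a1*, *Star*, *Hsd17b12* and *Hsd11b1* kept their direction wherever they were fitted, and *Hsd17b12* lay between -0.65 and -0.33. The log2 ratio of *Cyp19a1* to *Srd5a1* kept its sign (-0.83 to -0.11 with single mice left out), and the second block alone gave no value because *Cyp19a1* was at 0 in a mouse. Depth limits *Cyp11a1*, *Hsd11b1* and *Cyp19a1* most, with 2 to 35 counts per mouse.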
